A study of Mus musculus and other sequences with 2 samples.

Results

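The miR-15/miR-16 family, here with miR-195, miR-322 and miR-497, was measured on the array with 7 assays under 6 names, out of 750 miRNA assays under 724 names. The members were chosen by name, as the assays of mmu-miR-15a, mmu-miR-15b, mmu-miR-16, mmu-miR-195, mmu-miR-322, mmu-miR-424 and mmu-miR-497 without the # that marks a minor arm. No assay had the name mmu-miR-424, and miR-322 was spotted with 2 assays. Conditioned media came from 25 CD1 mouse embryos, obtained from superovulated females mated with CD1 males, which were cultured together in an 8 μL microdroplet from 99 to 116 h post-hCG. The females were 3 weeks old by the labels, and the methods give a range up to 4 weeks. According to the labels the embryos were blastocysts, and according to the methods they were compacted or cavitating morulae at the start. Blank media came from an equivalent microdroplet that held no embryo over the same 17 h. Both media were KSOM without BSA, with 0.1% of a polyvinyl polymer in its place. Of each droplet, 6 μL was lysed without RNA extraction, reverse transcribed, pre-amplified for 12 cycles and amplified for 40 cycles on array cards A and B. There was 1 sample per condition, so no test between the media was possible, and every value is the Ct of 1 well. Ct is the cycle at which fluorescence crosses a threshold, and a lower Ct stands for more template. An assay was taken as detected at a Ct below 35, with an undetermined well counted as not detected. The study also required a minimum ΔRn, the height of the fluorescence signal, which was not analysed here, so that detected is a wider class here than in the study.

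MicroRNAs repress mRNAs that pair with their seed, bases 2 to 8 counted from the 5′ end, and miRNAs with the same seed share many targets. The miR-15/16 family is known for repressing cyclins, other cell-cycle genes and the anti-apoptotic gene Bcl2, and loss of miR-15a and miR-16-1 is a hallmark of human chronic lymphocytic leukaemia. In mammals its members are made from several short clusters, each transcribed as a unit, so that members of the same cluster start from the same precursor RNA.

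The mature sequences are shown because the family is defined by its seed and because its members differ only outside it. All 6 names were matched to RefSeq miRNAs of GRCm38.p6 by name, and the arm without # was read as the 5p arm, since the array table lists names and not sequences. Capitals mark the seed.
mmu-miR-15a: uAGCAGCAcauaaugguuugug
mmu-miR-15b: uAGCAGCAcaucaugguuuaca
mmu-miR-16: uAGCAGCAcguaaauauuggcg
mmu-miR-195: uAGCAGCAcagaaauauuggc
mmu-miR-322: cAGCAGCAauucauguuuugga
mmu-miR-497: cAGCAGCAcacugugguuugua

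The seed AGCAGCA was the same in all 6 sequences. Of 1679 mature names in the RefSeq table, 10 carried it, which is 0.596%. Outside the family these were miR-195b, miR-6342, miR-6353 and miR-6419, and none of the 4 had an assay on the array by name. Position by position from the 5′ end, the closest pair was miR-16 and miR-195, with 19 of 21 positions the same and the substitutions G10A and U11G from miR-16 to miR-195. The sequences of miR-15a and miR-15b were the same at 18 of 22 positions, and differed by A12C, G20A, U21C and G22A from the former to the latter. The most distant pair, miR-16 and miR-497, had 11 of 22 positions in common. Whether an assay of one member also amplifies another was not tested.

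In conditioned media, miR-195, miR-16, miR-15b and 1 of the 2 assays of miR-322 were detected, which is 4 of 7 assays. Over all 750 miRNA assays, 37.3% had a Ct below 35 in conditioned media. In blank media, miR-497 was detected, which is 1 of 7, compared with 29.1% of all assays. None of the 7 was detected in both media, as were 23.5% of all assays, and with 7 assays a count of 0 is not set apart from that share. Detection in conditioned media only was found for 4 of 7 family assays, compared with 13.9% of all miRNA assays. That share was 14.1% among the 567 mouse assays without #, and 13.2% among the 680 assays with no Ct earlier than 15 in either medium. The reverse, detection in blank media only, was found for 1 of 7 family assays and 5.60% of all assays. The droplet held 25 embryos together, so if cells released the detected RNA, their number and the RNA from each cannot be told apart. The source of the RNA was not tested. With 1 droplet per medium, a difference between droplets was not tested either.

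**Figure D1:**
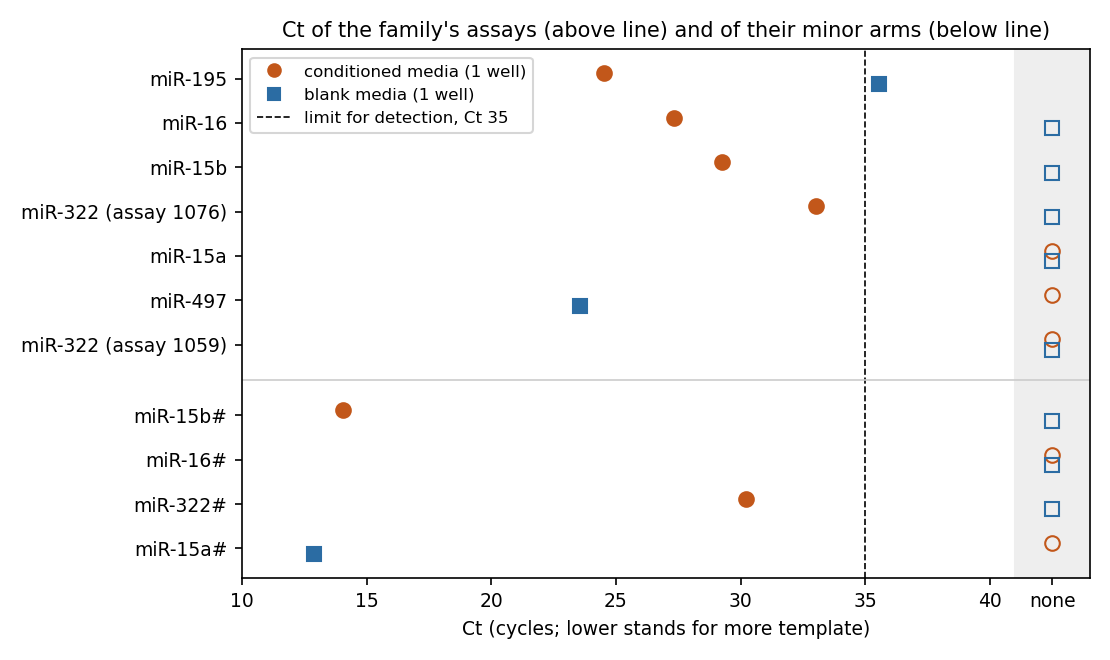
Ct in cycles of the 7 family assays and of the 4 minor-arm assays of the same hairpins, in conditioned media (circles) and blank media (squares), 1 well each; the numbers beside miR-322 are assay names, open symbols under "none" are undetermined wells and the dashed line is the limit of 35. The assays of miR-195, miR-16, miR-15b and miR-322 had a Ct between 24.5 and 33.0 in conditioned media, whereas miR-497 had one of 23.6 in blank media and none in conditioned media.

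The assay of miR-195 had the lowest Ct of the family, 24.5 in conditioned media, and its blank Ct was 35.5. It was the only member with a Ct in both samples, and was 11.04 cycles earlier in conditioned media. Of the 193 miRNA assays with a Ct in both samples, 24 had an advance of over 5 cycles with embryos, and 3 of these exceeded that of miR-195. miR-195 and miR-497 are known for holding back the cell cycle, and miR-195 for its part in the withdrawal of heart muscle cells from it. The assay of miR-16 reached 27.3 cycles in conditioned media, and its blank well was undetermined. With the blank well set to 40 cycles, the last cycle run, the difference was at least 12.68 cycles. The assay of miR-15b reached 29.3 cycles, again with an undetermined blank well, a difference of at least 10.74 cycles. No second droplet was measured in either medium, so the spread that these differences would have between droplets is unknown.

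The 2 assays of miR-322, both on card B, did not give the same result. The first reached 33.0 cycles in conditioned media with an undetermined blank well, a difference of at least 6.99 cycles. The other was undetermined in both samples. The table names both alike, and what sets them apart was not analysed here. Of the 26 names with 2 assays, 10 had just 1 of them detected in conditioned media, as miR-322 did, 6 had both and 10 had neither. The detected well of miR-322 was 1.99 cycles below the limit, and 11 of the 104 assays detected in conditioned media only had a later Ct.

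miR-15a was undetermined in both media. miR-497 had no Ct in conditioned media but reached 23.6 cycles in the blank sample, so that it was later in conditioned media by at least 16.45 cycles. Its Ct in blank media was earlier than that of any family assay in conditioned media, and 1.43 cycles earlier than the mean of the reference RNA U6 on card A of the blank sample, or 3.03 cycles with the U6 well at 20.2 left out. Among the 42 assays detected in blank media only, whose median Ct was 25.0, miR-497 ranked 19 by Ct, and 38 of the 42 were undetermined in conditioned media. Whether the well of miR-497, or any of these 42, would pass the limit on ΔRn was not analysed here. With both limits, the study counted far fewer sequences as exclusive to blank media, and its text does not name them.

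An earlier Ct by over 5 cycles in conditioned media, with undetermined blank wells set to 40, was found for 4 of 7 family assays and for 16.0% of all 750. U6 itself was earlier with embryos, the mean over 4 wells differing by 4.08 cycles on card A and by 7.07 on card B. On card A its SD was 0.68 with embryos and 3.22 without, where 1 blank well at 20.2 stood apart from 3 wells between 26.3 and 27.1. On card B the SD was 0.83 with embryos and 0.23 without. Relative to the mean of U6 on the same card, miR-195 was earlier in conditioned media by 6.96 cycles, miR-16 by at least 8.60 and miR-15b by at least 6.65. The blank well at 20.2 was then left out together with the conditioned U6 well paired with it, at 21.3. This was tried once the values were known. The differences of these 3 became -5.23, -6.86 or less and -4.92 or less. Leaving out the blank well alone was not tried for these differences. For miR-322 the mean over all 4 U6 wells gave a bound of 0.0825 cycles later, so that no direction relative to U6 could be given. For miR-497 it gave at least 20.5 cycles later in conditioned media. The median difference of the miRNA assays detected in both media was -0.12 cycles over 94 assays of card A and 0.25 over 82 of card B. These assays were kept by being detected in both, which leaves out the 104 detected with embryos only, so their median does not show whether miRNAs as a whole shifted as U6 did. Centred on these medians, with that limit, the difference was 10.93 cycles earlier for miR-195 and at least 7.24 for miR-322.

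**Figure D2:**
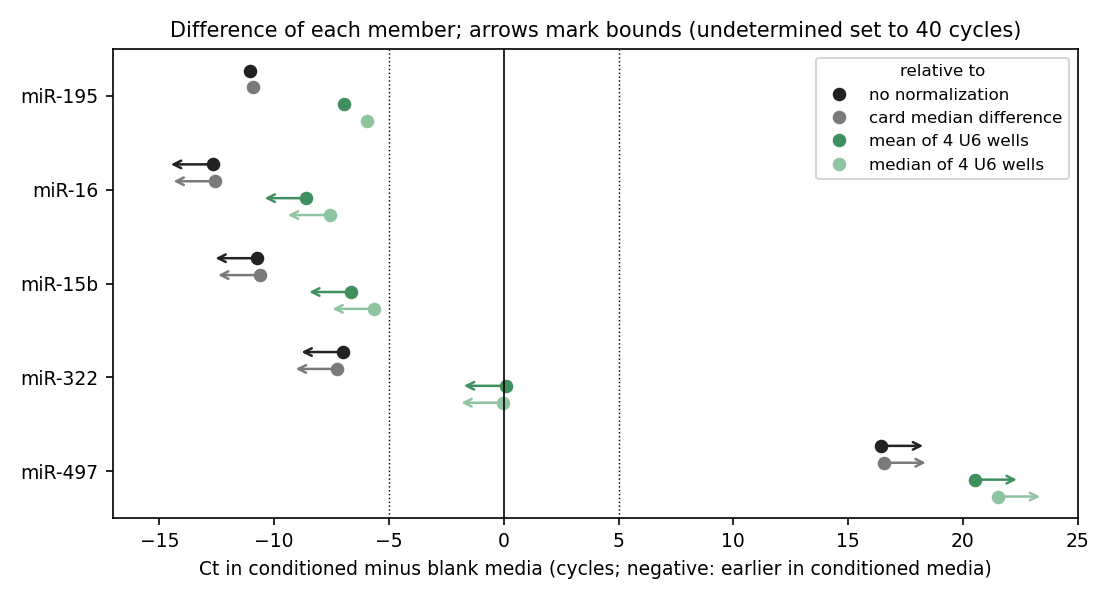
Differences in Ct, conditioned minus blank, in cycles, for the 5 family assays with a Ct in at least 1 sample, without normalization and relative to the card median difference, to the mean and to the median of the 4 U6 wells of the card; arrows of fixed length mark bounds that rest on an undetermined well set to 40, and dotted lines mark 5 cycles. The points of miR-195, miR-16 and miR-15b lie beyond 5 cycles earlier on all 4 scales, those of miR-322 on the scales that do not use U6, and those of miR-497 lie on the opposite side.

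In order of Ct in conditioned media, miR-195 was followed by miR-16, miR-15b and miR-322. The step from miR-195 to miR-16 was 2.82 cycles, that from miR-16 to miR-15b was 1.94 cycles, and that from miR-15b to miR-322, which is on the other card, was 3.75 cycles. Each step was larger than the SD of U6 wells in conditioned media. However, Ct values of different assays also depend on the efficiency of each. Where both assays of a name were detected in conditioned media, they differed by 1.25 to 7.42 cycles, with a median of 3.73 over 6 names. All 3 steps lie within that range, so the order of neighbours is not settled as an order of amounts. The distance from miR-195 to miR-322 was 8.50 cycles, and over both media the 8 such pairs of wells differed by up to 14.7 cycles, so that their order is not settled either.

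With the 280 assays detected in conditioned media ranked from the lowest Ct, miR-195 ranked 131, miR-16 ranked 175, miR-15b ranked 207 and miR-322 ranked 261. Among the 104 detected in conditioned media only, their ranks were 31, 44, 61 and 93. The median Ct of the 4 detected family assays was 28.3, beside 25.5 over the 280 and 28.4 over the 104. Of all 750 assays, 44 had a Ct earlier than 15 with embryos and 48 without, and none of the 7 family assays was among them in either medium.

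**Figure D3:**
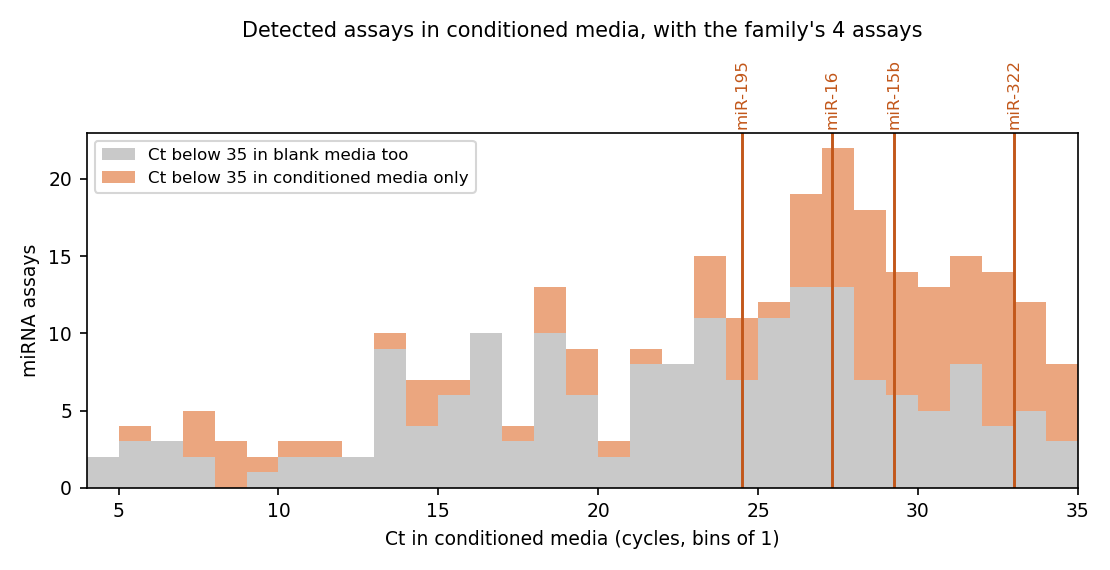
Number of miRNA assays by Ct in conditioned media, in bins of 1 cycle, for the 280 assays detected there, with grey for those detected in blank media too and orange for the 104 that were not; vertical lines mark the 4 detected family assays. The lines of miR-195, miR-16, miR-15b and miR-322 stand at 24.5, 27.3, 29.3 and 33.0, where many of the orange counts also lie.

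The results were then set out by gene cluster. In RefSeq on GRCm38.p6, the genes Mir15b and Mir16-2 lie within Smc4, which encodes a condensin subunit. Their 5p arms are at chr3:69009775-69009796 and chr3:69009918-69009939 on the plus strand, starting 143 bases apart. Both mature miRNAs of this cluster were detected in conditioned media only. The genes Mir15a and Mir16-1 lie within the non-coding RNA Dleu2, with 5p arms at chr14:61632075-61632096 and chr14:61631936-61631957 on the minus strand. The mature sequence of miR-16 is the same from Mir16-1 and Mir16-2, so its assay cannot tell the clusters apart, and miR-15a, which is made from the second cluster alone, was undetermined in both media.

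The genes Mir497 and Mir195a are neighbours on chromosome 11, with 5p arms at chr11:70234730-70234751 and chr11:70235062-70235082 on the plus strand, starting 332 bases apart. The assays of this cluster went in opposite directions, as miR-195 was at 24.5 cycles with embryos whereas miR-497 had no Ct there. In the blank sample miR-195 was at 35.5 cycles and miR-497 at 23.6. Each of these rests on 1 well, and the Ct values of these different assays give no order of amounts within a sample.

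Mir322 lies on the X chromosome with Mir503 and Mir351, within the non-coding RNA C430049B03Rik. Its hairpin, at chrX:53054255-53054349 on the minus strand of GRCm38.p6, is shown because both of its arms had a Ct in conditioned media, with the 5p arm and then the 3p arm in capitals.
Mir322: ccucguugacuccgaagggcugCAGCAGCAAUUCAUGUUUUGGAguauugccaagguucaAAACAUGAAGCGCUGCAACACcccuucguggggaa

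The assay of the minor arm, miR-322#, reached 30.2 cycles in conditioned media, and its blank well was undetermined. It was thus earlier than the detected assay of miR-322 by 2.80 cycles, which is less than the largest distance between assays of the same name. miR-322 and miR-503 are known for repressing Cdc25a, a phosphatase that drives cell-cycle entry. miR-503 was undetermined in both media, as was its minor arm. Of 11 assays named for miR-503, miR-351, miR-542 or miR-450, which belong to this cluster and its continuation downstream, 4 were detected with embryos and 2 without, beside 37.3% and 29.1% of all assays. The assay of miR-351, whose seed is that of the miR-125 family, reached 32.9 cycles in conditioned media, and the assay rno-miR-351, named for rat, reached 30.9. Both blank wells were undetermined. The Ct of miR-542-3p was 26.1 with embryos and 34.5 without, and that of miR-450b was 23.5 with embryos and 32.6 without. These 2 were earlier in conditioned media by 8.48 and 9.13 cycles. The other 7 assays, for miR-503, miR-503#, miR-542-5p, miR-450a, miR-450a-3p, miR-450B-3P and rno-miR-450, were undetermined in both.

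**Figure D4:**
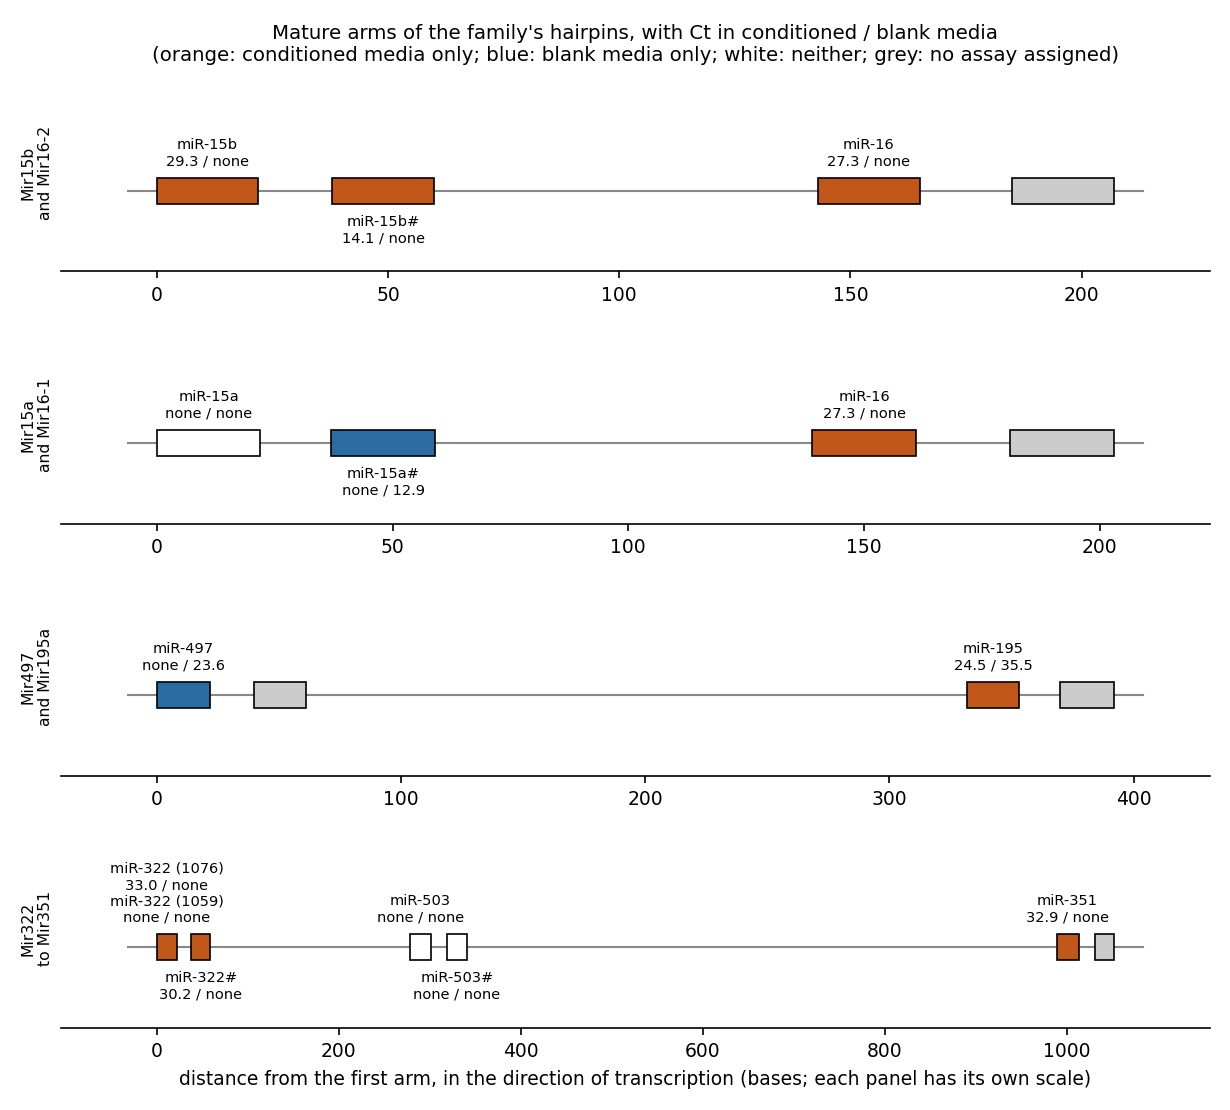
Mature arms of the family's hairpins along each cluster, by distance in bases from the first arm, with the Ct of each assay in conditioned and then blank media, where "none" is an undetermined well. Orange marks arms detected in conditioned media only, blue in blank media only, white in neither, and grey arms without an assigned assay; the single assay of miR-16, with a Ct of 27.3, is drawn at both of its genes.

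The assay of miR-15b# reached 14.1 cycles in conditioned media, where miR-15b was at 29.3, with an undetermined blank well. That of miR-15a# reached 12.9 cycles in the blank sample and was undetermined with embryos, whereas miR-15a had no Ct in either. The array named no minor arm for miR-195 or miR-497. The RefSeq sequences of the pair with an early Ct are shown with bases 2 to 8 in capitals, which differ from the seed of the family.
mmu-miR-15b#: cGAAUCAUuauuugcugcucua
mmu-miR-15a#: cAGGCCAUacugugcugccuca

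Both values are earlier than 15 cycles, and such Ct values were found for 9 of the 122 minor-arm assays with embryos and 6 without. The assay of miR-16# was undetermined in both media, and was not assigned to an arm because the 3p arms of Mir16-1 and Mir16-2 differ.

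The wider miR-15/miR-107 group also holds miR-103, miR-107 and miR-503, which share part of the seed. In miR-103 and miR-107, both known for a role in insulin sensitivity, the letters AGCAGCA stand 1 base earlier, at the first position, and in miR-503 the last base of the seed is different. Capitals mark the related letters.
mmu-miR-103: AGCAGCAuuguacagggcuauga
mmu-miR-107: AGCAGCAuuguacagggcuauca
mmu-miR-503: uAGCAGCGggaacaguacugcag

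Of these 3, miR-103 reached 30.0 cycles in conditioned media with an undetermined blank well, and miR-107 and miR-503 were undetermined in both.

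The assays with the most similar pair of Ct values on the same card were looked up for each detected member, by the distance in cycles over the 2 samples. For miR-195 they were miR-34b-3p and miR-542-3p, at 1.82 and 1.85 cycles. For miR-16 they were miR-677 and miR-126, at 0.18 and 0.36 cycles. For miR-15b they were miR-26a and miR-574-3p, at 0.09 and 0.25 cycles. For miR-322 they were miR-291-3p and miR-1935, at 0.015 and 0.06 cycles. With 2 values per assay, this describes the Ct alone.

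Lists of miRNAs typical of possible sources were read in the same samples, where 37.3% of all assays were detected with embryos, 29.1% without and 13.9% with embryos only. Of 14 mouse assays without # for miR-290 to miR-295, which are typical of the early mouse embryo, 10 were detected in conditioned media only and none in blank media, with miR-292-3p at 19.6 as the lowest Ct. With minor arms and assays named for rat there were 19, of which 13 were detected in conditioned media only and 1, rno-miR-294, in blank media only. Of 3 assays typical of red blood cells, where miR-16 is also abundant, miR-451 and miR-144 were undetermined in both media, and miR-486 was at 27.7 cycles with embryos and 23.3 without. Of 5 assays typical of white blood cells, 4 were detected with embryos and all 5 without. The assay of miR-150 was at 27.4 cycles with embryos and 27.2 without, and that of miR-142-3p at 28.7 and 28.2. One assay of miR-223 was at 27.4 with embryos and 31.7 without, the other at 31.4 and 29.5, and miR-142-5p was undetermined with embryos and at 32.4 without. Of the sperm miRNAs, miR-34c was at 27.9 cycles with embryos and undetermined without, and miR-34b-3p was at 26.1 and 34.8. Of the other controls, snoRNA135 was at 33.0 and 29.3 cycles and snoRNA202 at 28.5 and 29.8 on cards A and B with embryos. U87 was at 32.7 on card A and Y1 at 15.5 on card B with embryos, and each was undetermined on the other card. All of these were undetermined without embryos, and the plant control ath-miR159a was undetermined throughout. The part of any of these sources in the Ct of the family was not tested.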

How the data were processed

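Conditioned and blank media were profiled once each on TaqMan Rodent MicroRNA cards A and B v3.0, and the authors exported the wells with their instrument software. They deposited the Ct per well, an inverted log2 scale, without normalization. The ΔRn, on which the study also filtered, was not analysed here, so a Ct below 35 was the sole limit and more wells count as detected than under both limits. A further deposited table holds the authors' own fold changes between the media and was not used. Pre-amplification lowers every Ct, and what it adds to the error was not measured.

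Counts are over the 768 wells of a sample less 18 controls. Differences were conditioned minus blank media, with undetermined wells set to 40 cycles for bounds. The 1 sample per condition allowed no test. Errors were read from 4 U6 wells per card and from names with 2 assays. Alternatives were Ct limits of 32 and 38 and any Ct, a difference limit of 3 cycles, and centring on U6 or the card median.

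The members and lists were chosen with earlier results of these data known. Named were all members, their minor arms, cluster neighbours, the miR-15/miR-107 group, controls, marker lists and the 2 nearest assays. Neighbours of miR-322 and the embryo miRNAs were taken by number because the listed names missed some assays. Counting was tested on simulated wells, where 4 of 4 checks passed. Python 3.11.15, pandas 2.3.3, numpy 2.4.6 and matplotlib 3.10.9 were used.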

Additional observations from a re-analysis of the deposited data

How the results depend on the processing

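Detection in conditioned media only was found for 3 of 7 family assays at a Ct limit of 32, where miR-322 was lost. It was also found for 3 at a limit of 38, at any determined Ct, or with an undetermined blank well required. In these cases miR-195 was lost through its blank Ct of 35.5. With an undetermined blank well required, 96 of all 750 miRNA assays were detected in conditioned media only. For the other limits, no such count over all assays is given here. Under a limit of 38 or any determined Ct, 2 of 7 assays were detected in blank media. At any determined Ct, this was so for 244 of all 750 miRNA assays, and 2 of 7 is not set apart from that share. The median Ct of the detected assays was 27.3 at a limit of 32. Of the 4 assays over 5 cycles earlier in conditioned media, 4 remained when centred on the card median, 3 at a Ct limit of 32, 3 relative to the mean or the median of U6, and 1, miR-195, when a Ct in both media was required. U6 of card A was also taken without its outlying blank well and the conditioned well paired with it, at 21.3. This choice was made after seeing the data. Relative to that U6, 2 remained, miR-195 at -5.23 and miR-16 at -6.86 or less. The bound of miR-15b was -4.92, close to the limit of 5 cycles. Leaving out the outlying blank well alone was not tried for this count. Among all 193 miRNA assays with a Ct in both media, 24 were over 5 cycles earlier. Relative to U6 or the card median, or at a limit of 32, no such count over all assays is given here. The bound of miR-322 changed sign relative to the mean of U6, to 0.0825, and was -0.03 relative to the median. No paired analysis was possible because there was 1 sample per condition. Each Ct rests on 1 well, and how often a second droplet would give the same wells was not measured.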
